A study of Homo sapiens with 15 samples.

Results

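The erythropoietin receptor gene EPOR, the kinase gene JAK2, the transcription factor genes STAT5A and STAT5B, and 6 genes known as STAT5 targets or feedback inhibitors (CISH, SOCS1, SOCS2, SOCS3, PIM1 and PIM2) were followed through RNA-seq of Reh cells. These 10 genes were taken by name out of 33367 genes in the tables: no threshold on a measured value selected them, but earlier results of these data were known when the set was drawn up. Reads assigned to each gene's transcripts were summed in each of 15 libraries, and groups were compared within each experiment.

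Reh is a human B-lymphoblastic leukaemia line with an ETV6::RUNX1 fusion gene and no intact copy of ETV6. In the first experiment, a vector switched on by doxycycline gave Reh populations a protein with a V5 tag: ETV6-WT (ETV6_WT, n = 3), ETV6-R399C, with a substitution in the DNA-binding domain (ETV6_R399C, n = 3), or the blue fluorescent protein tagBFP (tagBFP, n = 3, the control). Doxycycline was given at 500 ng/ml for 48 h to all 9. In the second, Reh populations with inducible dCas9-KRAB, a repressor brought to DNA by a guide RNA, carried a guide to the ERG promoter (sgERG, n = 3) or a non-targeting guide (sgCtrl, n = 3), were sorted on a fluorescent reporter and then had doxycycline at 500 ng/ml for 72 h. ETV6 and ERG are ETS-family transcription factors, of which ETV6 is a repressor. All 15 libraries thus come from 1 cell line and all were exposed to doxycycline, and the labels describe populations rather than single clones.

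Cytokine receptors such as EPOR have no kinase of their own: binding of the hormone activates JAK2 bound to the receptor, JAK2 phosphorylates the receptor and STAT5, and STAT5 enters the nucleus and switches on genes. Among those genes are CISH and the SOCS genes, whose proteins block the receptor or the kinase and so close a negative feedback loop, and the PIM kinases, which favour survival and growth. EPOR is best known in red cell precursors. In B-cell precursors the same JAK-STAT5 route is normally used by the interleukin-7 receptor, and rearranged EPOR drives some B-lymphoblastic leukaemias of another subtype.

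Library totals ran from 22040338 to 52481351 estimated reads, and those of sgERG (31881225 to 35735920) were all below those of sgCtrl (39873358 to 52481351). The targeted genes followed the labels: ETV6 averaged 481 ± 17.7 CPM (counts scaled to library size) in ETV6_WT, 375 ± 14.0 in ETV6_R399C and 5.89 ± 0.312 in tagBFP, and ERG 105.1 ± 4.14 CPM in sgERG and 525 ± 6.35 in sgCtrl (SD, n = 3 each). Each also differed in the other experiment. ETV6 averaged 1.86 ± 0.498 TPM (a length-corrected measure) in sgERG and 3.76 ± 0.749 in sgCtrl. ERG was higher in ETV6_WT than in tagBFP by 0.10 ± 0.03 SE on the log2 scale (edgeR adjusted p = 0.00849). In ETV6_R399C over tagBFP, ERG stood at 0.00 (edgeR adjusted p = 0.982). The part of these differences in the results was not tested. Of 11 B-lineage markers, 10 had reads, and their summed level was 7397 to 7599 CPM in ETV6_WT, 7082 to 7245 in ETV6_R399C, 5929 to 6009.9 in tagBFP, 8007 to 8098 in sgERG and 9266 to 9369 in sgCtrl. VPREB1, another defining marker, was listed at 0 in all 15 libraries, and the part of the marker shifts in the results was not tested. Of 14 erythroid markers, 7 had no read in any library, the master regulator GATA1 and 3 adult globin genes (HBA1, HBA2 and HBB) among them. In these bulk libraries, fewer cells expressing a gene and less RNA of it per cell cannot be told apart. The labels do not state whether replicates came from separate cultures, so the p-values measure the spread between these libraries, which may be technical.

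A pair of promoters is shown because they stand at opposite ends of the loop: EPOR, whose RNA was lower in each of the 4 comparisons between groups, and CISH, the textbook STAT5 target, whose RNA passed the test in none. Each line gives the bases before the gene's first annotated start, 5′ to 3′ on the gene's own strand, from RefSeq (GRCh38.p14). EPOR is chr19:11384343-11384564 and CISH is chr3:50611832-50612024, both on the minus strand. Capitals mark TTCNNNGAA, the palindromic STAT motif, which reads the same on both strands.
EPOR: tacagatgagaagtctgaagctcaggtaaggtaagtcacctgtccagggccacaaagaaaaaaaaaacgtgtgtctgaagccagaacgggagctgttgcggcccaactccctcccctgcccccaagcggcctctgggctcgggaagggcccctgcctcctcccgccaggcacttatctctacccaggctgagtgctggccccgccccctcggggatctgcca
CISH: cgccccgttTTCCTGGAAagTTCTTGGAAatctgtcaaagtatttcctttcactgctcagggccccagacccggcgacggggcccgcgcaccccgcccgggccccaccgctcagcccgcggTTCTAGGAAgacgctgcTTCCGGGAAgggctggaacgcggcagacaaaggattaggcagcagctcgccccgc

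CISH held 4 TTCNNNGAA matches, at -241, -230, -129 and -112 bases from the RefSeq gene start, which lies downstream of the end of the line shown. A window of 250 bases before to 50 bases after the start held at least 1 match in 7.66% of 35116 RefSeq promoters, and in none of the other 8 genes of the set that have a window in the table. The ETS motif CCGGAA, searched on both strands, was in 17.2% of these promoters. The shorter ETS core GGAA was not searched on its own, and its matches are neither marked nor counted. SOCS3 held 3 matches to CCGGAA, CISH held 1 that overlaps its STAT match at -112, and EPOR and the other 6 held none. Those of SOCS3 all lay in a window at chr17:78360876-78361175, upstream of its GENCODE start at 78360077, and its other window held none. Its matches at -215 and -213 overlap, as a single stretch read on opposite strands. JAK2, STAT5A and SOCS3 had more than 1 window searched, whereas the percentages are per window. The ETS pair GGAAGGAA, also searched on both strands, was in 3.67% of promoters and in none of the 9. SOCS2 had no entry and was not searched.

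On the length-corrected TPM scale, the 10 genes covered a wide range in both control groups, in the same order. In tagBFP, PIM1 averaged 36.6 ± 3.81 TPM, STAT5B 33.8 ± 0.837, SOCS2 17.3 ± 1.26, EPOR 15.9 ± 1.02 and PIM2 12.5 ± 0.465 (SD, n = 3). Below them came STAT5A at 5.77 ± 1.63, JAK2 at 3.40 ± 0.0523, SOCS1 at 2.59 ± 0.084, CISH at 0.951 ± 0.0884 and SOCS3 at 0.456 ± 0.271 TPM. The neighbours PIM1 and STAT5B overlapped between libraries, and so did SOCS2 and EPOR, while the other neighbours did not. In sgCtrl the means ran from 58.7 ± 0.785 TPM for PIM1 to 0.727 ± 0.0967 for SOCS3, and no neighbours overlapped.

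The order shifted in the treated groups. STAT5B at 38.2 ± 0.273 TPM and SOCS2 at 34.5 ± 0.561 TPM stood above PIM1 at 26.7 ± 1.63 TPM in ETV6_WT. PIM1 at 52.0 ± 3.03 TPM led in ETV6_R399C, and STAT5B at 42.5 ± 0.735 TPM led in sgERG, ahead of PIM1 at 37.7 ± 1.49 TPM. PIM2 stood above EPOR in all 3 of these groups and below it in both controls: 12.7 ± 0.632 TPM for PIM2 and 9.38 ± 0.235 for EPOR in ETV6_WT, 15.8 ± 0.714 and 13.1 ± 0.37 in ETV6_R399C, and 21.0 ± 1.05 and 12.0 ± 0.272 in sgERG. For scale, the interleukin-7 receptor gene IL7R, named after its values were seen, averaged 285 ± 6.02 TPM in ETV6_WT, 308 ± 11.7 in ETV6_R399C, 304 ± 9.24 in tagBFP, 327 ± 20.4 in sgERG and 340 ± 5.88 in sgCtrl. EPO, the hormone that EPOR binds, had 0 to 11 reads per library.

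**Figure D1:**
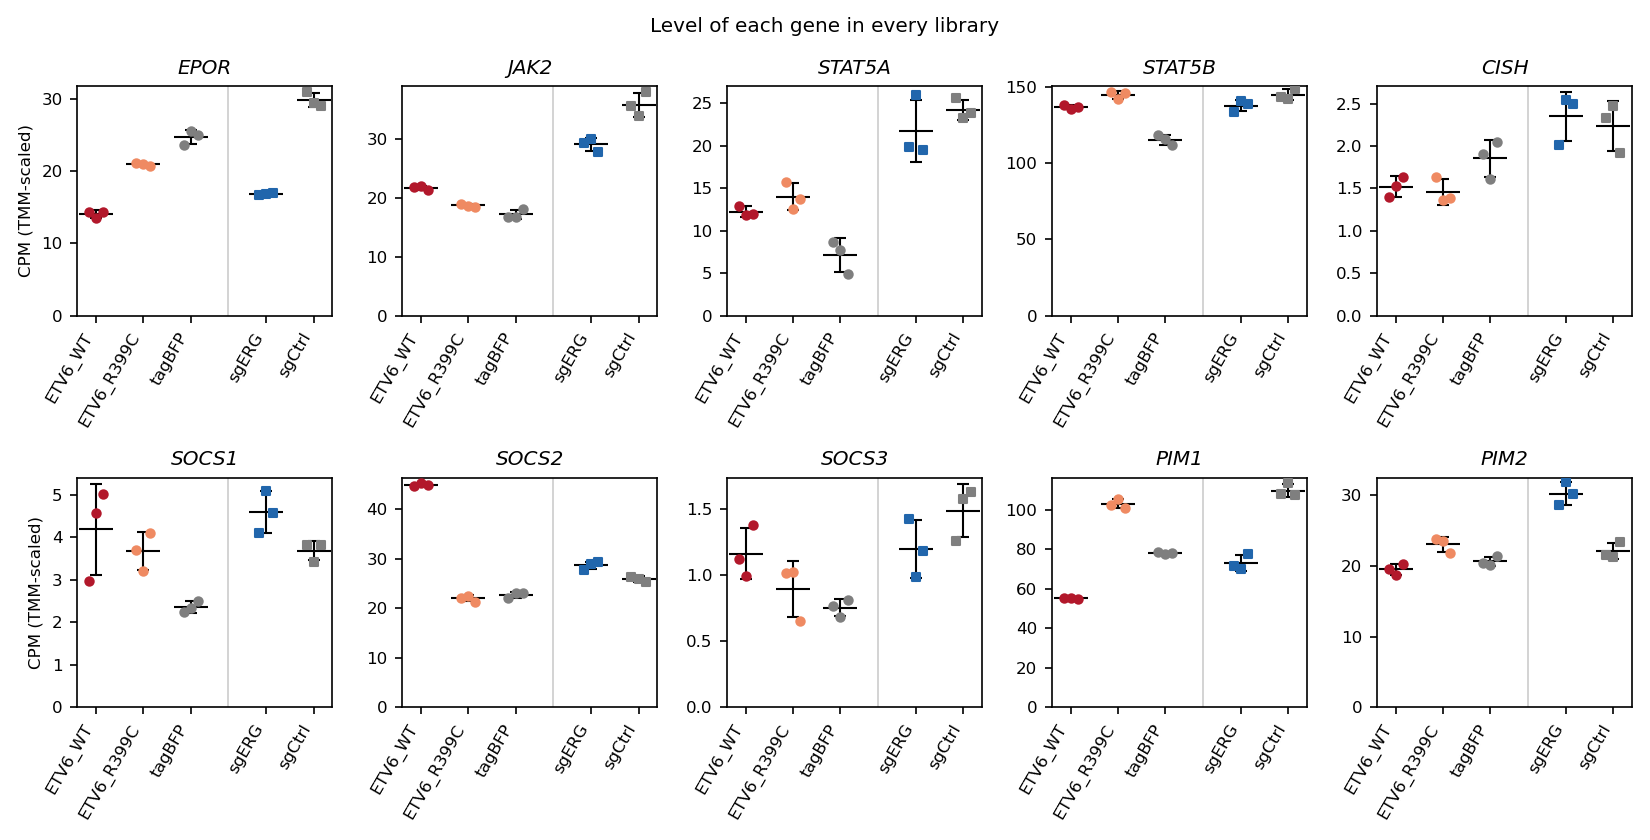
Level of each gene in CPM (y axis, from 0) in the 3 libraries of each group (x axis); dots are libraries, horizontal lines are means and error bars are SD, and the grey line parts the 2 experiments, which were scaled separately. EPOR is lower in ETV6_WT and sgERG than in their controls, SOCS2 is high in ETV6_WT, and PIM1 is low in ETV6_WT and high in ETV6_R399C.

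Expression of ETV6-WT was compared with tagBFP to ask what wild-type ETV6 does to these genes in cells that lack it. Of the 10 genes, 5 were higher (JAK2, STAT5A, STAT5B, SOCS1 and SOCS2), 2 were lower (EPOR and PIM1) and CISH, SOCS3 and PIM2 did not pass an adjusted p of 0.05 in edgeR's quasi-likelihood test. Over all 14229 genes tested, 37.9% were called, 15.7% higher and 22.2% lower. The median log2 fold change was 0.29 over the 10 genes and -0.02 over all genes, and the median size was 0.56 and 0.16. Libraries of ETV6_WT and tagBFP did not overlap for 8 of the 10 genes, and for 48.6% of all genes.

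EPOR (chr19:11377205-11384342, minus strand) had 14.3, 13.5 and 14.4 CPM in ETV6_WT, against 23.6, 25.6 and 24.9 CPM in tagBFP. All ETV6_WT libraries lay below all tagBFP libraries. EPOR was 1.76-fold lower, a log2 fold change of -0.82 ± 0.05 SE (95% interval -0.93 to -0.70; edgeR adjusted p = 3.3e-07). RGL3, whose exons overlap those of EPOR on the same strand, had 0.0550 CPM in ETV6_WT and 0.327 CPM in tagBFP, far below EPOR. How Salmon divided reads between RGL3 and EPOR was not tested.

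JAK2 (chr9:4984390-5128183, plus strand), the receptor's kinase, had 21.8, 22.0 and 21.3 CPM in ETV6_WT, against 16.8, 16.8 and 18.04 CPM in tagBFP. No library of one group overlapped the other, and JAK2 rose by 0.34 ± 0.05 SE on the log2 scale (edgeR adjusted p = 2.6e-04). STAT5B (chr17:42199168-42276707, minus strand) had 138, 136 and 137 CPM in ETV6_WT, against 119, 116 and 112 CPM in tagBFP. It was again higher in every ETV6_WT library, by 0.24 ± 0.03 SE (edgeR adjusted p = 5.5e-05).

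STAT5A (chr17:42287547-42311943, plus strand), the near-identical neighbour of STAT5B, had 13.0, 11.8 and 12.0 CPM in ETV6_WT, against 8.72, 7.74 and 4.89 CPM in tagBFP. The groups did not overlap, and tagBFP replicate 3 was low among the controls. STAT5A was higher by 0.77 ± 0.16 SE (edgeR adjusted p = 0.0032), by 0.57 without tagBFP replicate 3, and by 0.55 with a transcript length offset, where edgeR's adjusted p was 0.0534 (range over its alternatives 1.4e-05 to 0.0534). The 2 genes share sequence, so salmon's split of reads between them is uncertain. Their summed reads were higher by 0.28 ± 0.03 SE (edgeR adjusted p = 6.8e-05).

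SOCS2 (chr12:93569814-93583487, plus strand), a feedback inhibitor best known for restraining growth hormone signalling, changed most among the 10 genes. It had 44.7, 45.2 and 44.8 CPM in ETV6_WT, against 22.03, 23.1 and 23.0 CPM in tagBFP. Every ETV6_WT library stood far above every tagBFP library, a log2 fold change of 0.99 ± 0.04 SE (edgeR adjusted p = 1.0e-08). An annotated antisense gene, SOCS2-AS1, overlaps its exons and was not analysed here.

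SOCS1 (chr16:11254405-11256200, minus strand), which inhibits JAK kinases directly, had 2.98, 4.58 and 5.01 CPM in ETV6_WT, against 2.23, 2.33 and 2.51 CPM in tagBFP. The groups did not overlap, though ETV6_WT replicate 1 was low in its group. SOCS1 was higher by 0.84 ± 0.19 SE (edgeR adjusted p = 0.00491) on 64 to 120 reads per ETV6_WT library. It lies within RMI2, a gene on the opposite strand with no overlapping exon, which was also higher (51.9 CPM in ETV6_WT, 41.2 CPM in tagBFP, log2 fold change 0.33 ± 0.04 SE, edgeR adjusted p = 4.1e-05).

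The other feedback inhibitors were scarce. SOCS3 (chr17:78356778-78360077, minus strand), the inhibitor of gp130-type receptors, had 1.12, 0.991 and 1.37 CPM in ETV6_WT, against 0.764, 0.681 and 0.808 CPM in tagBFP. These groups did not overlap, but with 19 to 31 reads per library the log2 fold change of 0.62 had a 95% interval of 0.06 to 1.19 and missed the threshold (edgeR adjusted p = 0.0778). CISH (chr3:50606490-50611831, minus strand), which blocks STAT5 docking at the receptor, had 1.40, 1.53 and 1.64 CPM in ETV6_WT, against 1.91, 1.61 and 2.04 CPM in tagBFP. These groups overlapped, and the log2 fold change was -0.28 (95% interval -0.69 to 0.12; edgeR adjusted p = 0.261). MAPKAPK3, whose exons overlap CISH on the opposite strand, was at 25.7 CPM in ETV6_WT and 31.3 CPM in tagBFP, a log2 fold change of -0.28 ± 0.05 SE (edgeR adjusted p = 0.0011), and its part in the CISH values was not tested.

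The PIM kinases differed. PIM1 (chr6:37170203-37175426, plus strand) had 55.5, 55.4 and 54.9 CPM in ETV6_WT, against 78.8, 77.5 and 77.9 CPM in tagBFP. All ETV6_WT libraries were lower, by a log2 fold change of -0.50 ± 0.03 SE (edgeR adjusted p = 1.8e-07). PIM2 (chrX:48913182-48919024, minus strand) had 19.6, 18.7 and 20.3 CPM in ETV6_WT, against 20.4, 20.1 and 21.4 CPM in tagBFP. These overlapped, with a log2 fold change of -0.08 (95% interval -0.20 to 0.04; edgeR adjusted p = 0.297).

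**Figure D2:**
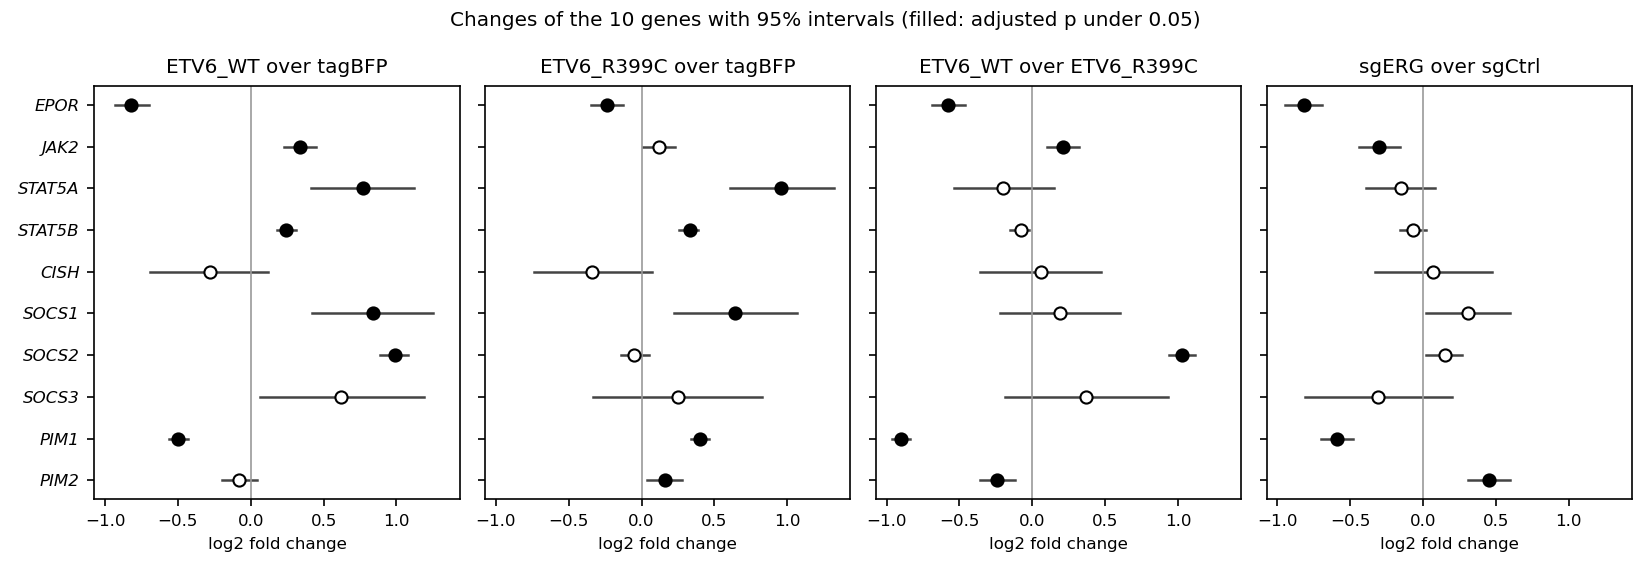
Log2 fold change (x axis) of the 10 genes (rows) in the 4 comparisons between groups, with the first-named group over the second; bars are 95% intervals from edgeR, and filled points passed an adjusted p of 0.05. EPOR lies left of 0 in all 4 panels, SOCS2 lies near 1 only in the 2 panels with ETV6_WT, and PIM1 lies right of 0 only for ETV6_R399C over tagBFP.

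The R399C form was compared with the same tagBFP libraries to ask what remains when the DNA-binding domain carries a substitution. Both ETV6 comparisons use these controls, so their values are not independent. STAT5A, STAT5B, SOCS1, PIM1 and PIM2 were higher, EPOR was lower, and JAK2, CISH, SOCS2 and SOCS3 did not pass edgeR's test. Thus 6 of 10 were called, beside 40.8% of all 14229 genes (18.7% higher and 22.1% lower). Without overlap between the groups were 7 of the 10 genes, and 50.7% of all genes. The median log2 fold change was 0.21 over the 10 genes and -0.00 over all genes.

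EPOR had 21.1, 21.0 and 20.7 CPM in ETV6_R399C, all below the 23.6 to 25.6 CPM of tagBFP. The log2 fold change was -0.24 ± 0.05 SE (edgeR adjusted p = 0.00264), a 1.18-fold lower level. PIM1 had 102.6, 105.6 and 101.2 CPM in ETV6_R399C, against 77.5 to 78.8 CPM in tagBFP. Every ETV6_R399C library was above every tagBFP library, by 0.40 ± 0.03 SE (edgeR adjusted p = 1.1e-06), whereas PIM1 was lower with ETV6_WT.

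SOCS2 had 22.2, 22.5 and 21.3 CPM in ETV6_R399C, against 22.03 to 23.1 CPM in tagBFP, and the groups overlapped. Its log2 fold change was -0.05, with a 95% interval of -0.14 to 0.05 (edgeR adjusted p = 0.514). The STAT5 genes were higher in ETV6_R399C than in tagBFP without overlap. STAT5B had 147, 142 and 146 CPM in ETV6_R399C, against 112 to 119 CPM in tagBFP, and was higher by 0.33 ± 0.03 SE (edgeR adjusted p = 5.6e-06). STAT5A had 15.7, 12.6 and 13.7 CPM in ETV6_R399C, against 4.89 to 8.72 CPM in tagBFP, and was higher by 0.96 ± 0.16 SE (edgeR adjusted p = 6.0e-04). Both genes summed were higher by 0.37 ± 0.03 SE (edgeR adjusted p = 7.5e-06).

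Among the feedback inhibitors, SOCS1 had 3.70, 3.21 and 4.10 CPM in ETV6_R399C, above the 2.23 to 2.51 CPM of tagBFP. It was higher by 0.64 ± 0.19 SE (edgeR adjusted p = 0.0193), and this call was lost without ETV6_R399C replicate 3 (adjusted p = 0.0697), without tagBFP replicate 1 (0.0585) and without tagBFP replicate 2 (0.0518), in a range over its alternatives of 0.00457 to 0.0697. RMI2 was again higher (log2 fold change 0.25 ± 0.04 SE, edgeR adjusted p = 0.00029). SOCS3 had 0.648 to 1.02 CPM in ETV6_R399C and 0.681 to 0.808 CPM in tagBFP, and CISH had 1.36 to 1.64 CPM in ETV6_R399C and 1.61 to 2.04 CPM in tagBFP. Both overlapped, with log2 fold changes of 0.25 for SOCS3 (edgeR adjusted p = 0.496) and -0.34 for CISH (edgeR adjusted p = 0.172). MAPKAPK3, opposite CISH, changed by -0.36 ± 0.05 SE (edgeR adjusted p = 2.0e-04).

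JAK2 had 19.0, 18.7 and 18.4 CPM in ETV6_R399C, above the 16.8 to 18.04 CPM of tagBFP. Its log2 fold change of 0.12 (95% interval 0.01 to 0.23) missed the threshold (edgeR adjusted p = 0.0717), except without tagBFP replicate 3 (adjusted p = 0.0391; range over its alternatives 0.0391 to 0.251). PIM2 had 23.8, 23.5 and 21.9 CPM in ETV6_R399C, above the 20.1 to 21.4 CPM of tagBFP, a log2 fold change of 0.16 ± 0.05 SE (edgeR adjusted p = 0.0309). That call was lost in DESeq2 (adjusted p = 0.102), without a filter on low counts (0.0507), and without ETV6_R399C replicate 1 (0.0627) or 2 (0.0835) or tagBFP replicate 1 (0.0912) or 2 (0.0963), in a range of 0.0179 to 0.102.

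The difference between the ETV6 forms was tested directly within the same fit. Transgene RNA itself differed, since ETV6 averaged 481 CPM in ETV6_WT and 375 CPM in ETV6_R399C. On the TPM scale the gap was wider, at 576 ± 3.71 in ETV6_WT and 326 ± 32.1 in ETV6_R399C. The part of this difference in transgene RNA in the other differences was not tested. JAK2 and SOCS2 were higher in ETV6_WT than in ETV6_R399C, and EPOR, PIM1 and PIM2 were lower. These 5 of 10 stand beside 20.0% of all 14229 genes called (9.25% higher and 10.7% lower). For 6 of the 10 genes the groups did not overlap, and for 37.9% of all genes.

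The largest of these differences were in SOCS2 and PIM1. SOCS2 was higher in ETV6_WT by 1.03 ± 0.04 SE on the log2 scale (edgeR adjusted p = 3.2e-08), and PIM1 was lower by a log2 fold change of -0.90 ± 0.03 SE (edgeR adjusted p = 5.7e-09), a 1.87-fold lower level. The 3 ETV6_WT libraries lay apart from the 3 ETV6_R399C libraries for both genes, in opposite directions. EPOR was 1.49-fold lower in ETV6_WT, a log2 fold change of -0.58 ± 0.05 SE (edgeR adjusted p = 2.0e-05).

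Smaller differences depended more on the setting. JAK2 was higher in ETV6_WT by 0.21 ± 0.05 SE (edgeR adjusted p = 0.0111), a call lost in DESeq2 (adjusted p = 0.0589) and with a transcript length offset (0.147; range 0.00789 to 0.147). PIM2 was lower by a log2 fold change of -0.24 ± 0.05 SE (edgeR adjusted p = 0.00969), a call lost with the length offset (0.0769; range 0.00985 to 0.0769). STAT5B did not pass at -0.08 (95% interval -0.15 to -0.02; edgeR adjusted p = 0.0659), but did in a fit of these groups alone (0.0394) and without tagBFP replicate 3 (0.0346; range 0.0346 to 0.29). The values were -0.20 for STAT5A (95% interval -0.54 to 0.15), 0.06 for CISH (-0.36 to 0.47), 0.19 for SOCS1 (-0.22 to 0.60) and 0.37 for SOCS3 (-0.19 to 0.93), none past the threshold.

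Repression of ERG was compared with the non-targeting guide to ask which genes follow the loss of an activating ETS factor. PIM2 was higher, EPOR, JAK2 and PIM1 were lower, and the STAT5, CISH and SOCS genes did not pass edgeR's test. These 4 of 10 stand beside 14.6% of 13464 genes tested (6.89% higher and 7.74% lower), and the median log2 fold change was -0.11 over the 10 and 0.00 over all genes. The groups did not overlap for 7 of the 10, and for 34.6% of all genes. Over all genes, 1969 were called, but 1160 without sgCtrl replicate 1 and 1162 without sgCtrl replicate 3. The lower depth of the sgERG libraries moves with the group, and its part was not tested.

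EPOR had 16.7, 16.8 and 17.0 CPM in sgERG, against 30.9, 29.4 and 29.03 CPM in sgCtrl. The sgERG libraries lay close together and far below sgCtrl, 1.77-fold lower, at a log2 fold change of -0.82 ± 0.06 SE (95% interval -0.95 to -0.69; edgeR adjusted p = 6.5e-06). JAK2 had 29.4, 30.0 and 27.8 CPM in sgERG, against 35.6, 33.8 and 37.9 CPM in sgCtrl. It too was lower in every sgERG library, by a log2 fold change of -0.30 ± 0.06 SE (edgeR adjusted p = 0.00905), a call lost without sgCtrl replicate 3 (0.058; range 9.9e-04 to 0.058).

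PIM1 and PIM2 moved in opposite directions. PIM1 had 71.5, 70.2 and 77.6 CPM in sgERG, against 108.3, 113.5 and 107.7 CPM in sgCtrl, a log2 fold change of -0.59 ± 0.05 SE (edgeR adjusted p = 2.2e-05). PIM2 had 28.6, 31.9 and 30.2 CPM in sgERG, against 21.6, 21.3 and 23.4 CPM in sgCtrl, a log2 fold change of 0.45 ± 0.07 SE (edgeR adjusted p = 0.00108). Neither gene's groups overlapped.

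SOCS2 had 27.8, 28.9 and 29.3 CPM in sgERG, against 26.4, 26.0 and 25.2 CPM in sgCtrl. The groups did not overlap, but the log2 fold change of 0.15 (95% interval 0.02 to 0.27) missed the threshold (edgeR adjusted p = 0.109). SOCS1 had 4.09 to 5.08 CPM in sgERG, above the 3.42 to 3.82 CPM of sgCtrl, with a log2 fold change of 0.31 (95% interval 0.02 to 0.60; edgeR adjusted p = 0.143). STAT5B lay between 134 and 141 CPM in sgERG and between 143 and 149 CPM in sgCtrl, at -0.07 on the log2 scale (95% interval -0.16 to 0.02; edgeR adjusted p = 0.261).

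The other 3 genes overlapped between sgERG and sgCtrl. STAT5A had 19.8, 26.0 and 19.5 CPM in sgERG, against 25.6, 23.3 and 23.8 CPM in sgCtrl, a log2 fold change of -0.15 (95% interval -0.39 to 0.08; edgeR adjusted p = 0.367). Replicate 2 was the high sgERG library, and without it the value was -0.30 (adjusted p = 0.0297; range over its alternatives 0.0297 to 0.658). SOCS3 had 0.987 to 1.42 CPM in sgERG and 1.26 to 1.62 CPM in sgCtrl, and CISH had 2.02 to 2.54 CPM in sgERG and 1.91 to 2.47 CPM in sgCtrl. SOCS3 stood at -0.31 (95% interval -0.81 to 0.20; edgeR adjusted p = 0.406). CISH stood at 0.07 (95% interval -0.33 to 0.47; edgeR adjusted p = 0.827), and at -0.03 without sgCtrl replicate 3.

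Whether ETV6_WT and sgERG changed a gene by the same amount was tested over all 15 libraries as the difference of the 2 log2 fold changes. The experiments also differ in vector system, sort and time, which cannot be told apart from the treatments in this difference. JAK2, STAT5A, STAT5B, SOCS2 and SOCS3 were more positive for ETV6_WT and PIM2 was more negative, 6 of 10 beside 30.0% of 14969 genes (14.3% more positive and 15.7% more negative). For EPOR the difference was 0.02, with a 95% interval of -0.12 to 0.17 (edgeR adjusted p = 0.856), so the data do not set the effects of ETV6_WT and sgERG on EPOR apart. PIM1 differed by 0.11 (95% interval -0.01 to 0.22; edgeR adjusted p = 0.155), past the threshold without sgERG replicate 3 (0.0159; range 0.0159 to 0.326).

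SOCS2 differed by 0.86 ± 0.06 SE (edgeR adjusted p = 2.5e-08) and JAK2, which was higher with ETV6_WT and lower with sgERG, by 0.66 ± 0.07 SE (edgeR adjusted p = 6.3e-06). PIM2 differed by -0.51 ± 0.08 SE (edgeR adjusted p = 1.8e-04) and STAT5B by 0.34 ± 0.04 SE (edgeR adjusted p = 2.9e-05). STAT5A differed by 0.93 ± 0.21 SE (edgeR adjusted p = 0.00317), and both STAT5 genes summed by 0.38 ± 0.05 SE (edgeR adjusted p = 4.3e-05). SOCS3 differed by 0.95 ± 0.33 SE (edgeR adjusted p = 0.0404), but this call was lost in most alternatives, among them DESeq2 (0.0894), no filter (0.083) and leaving out any single tagBFP library (0.0536 to 0.0874), ETV6_WT replicate 1 (0.0588) or 3 (0.107), sgERG replicate 2 (0.0886) or 3 (0.0626), or sgCtrl replicate 2 (0.0706) or 3 (0.0869; full range 0.0278 to 0.272). SOCS1 did not pass at 0.54 ± 0.24 SE (edgeR adjusted p = 0.0999), except without ETV6_WT replicate 1 (0.0116; range 0.0116 to 0.255). CISH stood at -0.34 (95% interval -0.86 to 0.18; edgeR adjusted p = 0.338).

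Salmon divided the reads of EPOR over 8 annotated transcripts, a division that depends on its model and is given without a test. The coding transcript EPOR-201 took 50.9% of the gene's reads in ETV6_WT, 52.4% in ETV6_R399C, 42.1% in tagBFP, 35.3% in sgERG and 36.9% in sgCtrl. It stood at 4.16 ± 0.0709 TPM in ETV6_WT, 6.66 ± 0.389 in ETV6_R399C and 5.87 ± 0.689 in tagBFP, and at 4.08 ± 0.804 TPM in sgERG and 7.44 ± 1.61 in sgCtrl (SD, n = 3 each). A large share thus lay on transcripts annotated as not coding for the receptor.

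The largest of those, the retained-intron transcript EPOR-203, took 31.5% of the reads in ETV6_WT, 30.0% in ETV6_R399C, 32.2% in tagBFP, 44.2% in sgERG and 44.1% in sgCtrl. Its level was 2.46 ± 0.0715 TPM in ETV6_WT, 3.65 ± 0.754 in ETV6_R399C and 4.31 ± 0.129 in tagBFP, and 4.88 ± 0.22 TPM in sgERG and 8.48 ± 1.04 in sgCtrl. Both transcripts were thus lower on average in ETV6_WT and in sgERG than in the control of each. In ETV6_R399C, EPOR-203 was lower than in tagBFP on average and EPOR-201 was not. EPOR thus had no single dominant transcript, whereas 1 transcript took most reads in every group for PIM1, JAK2, PIM2, STAT5B, SOCS1, SOCS3 and CISH, with the lowest share for CISH-201 (71.8% in ETV6_WT). SOCS2 and STAT5A reads were spread over 11 and 12 annotated transcripts.

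**Figure D3:**
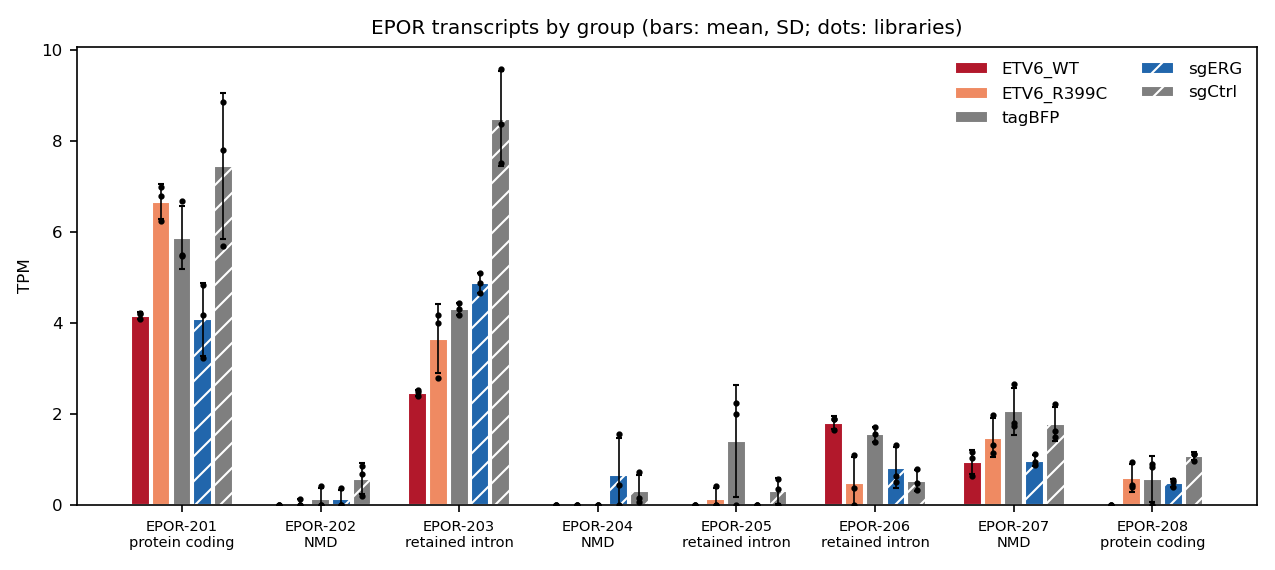
TPM (y axis, from 0) of the 8 annotated EPOR transcripts (x axis, with their annotated type; NMD is nonsense-mediated decay) in the 5 groups; bars are means of 3 libraries, error bars are SD, dots are libraries and hatching marks the sgERG and sgCtrl experiment. EPOR-201 and EPOR-203 hold most of the signal in every group.

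The genes whose pattern was most like that of EPOR were sought among 10242 protein-coding genes of at least 5 CPM on average, by Pearson's r of log2(CPM + 1) over 15 libraries after subtracting each experiment's mean. The libraries fall into treatment groups, so r here describes shared differences between groups. The closest were SLC17A7 (r = 0.993), NETO1 (0.992), ERFE (0.991), LRP8 (0.991) and SH3GLB2 (0.989). ERFE encodes erythroferrone, a hormone that erythroid precursors release in response to erythropoietin. It averaged 15.9 ± 0.396 CPM in ETV6_WT, 27.1 ± 1.25 in ETV6_R399C and 37.8 ± 0.833 in tagBFP, and 28.5 ± 1.43 CPM in sgERG and 64.9 ± 1.37 in sgCtrl. ERFE was picked for its likeness to EPOR in these libraries, so its like order of groups follows from the selection. Its folds were larger than those of EPOR. SLC17A7, a vesicular glutamate transporter gene, averaged 8.72 ± 0.332 CPM in ETV6_WT, 22.8 ± 0.288 in ETV6_R399C and 28.2 ± 2.45 in tagBFP, and 10.1 ± 0.338 CPM in sgERG and 33.1 ± 2.73 in sgCtrl.

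Among the 10 genes, PIM1 had r = 0.807 with EPOR and SOCS2 had r = -0.749 on the same measure. JAK2 had r = -0.963 with EPOR over the 9 libraries of the ETV6 experiment and 0.922 over the 6 of the ERG experiment. CISH, SOCS1 and SOCS3 were below the 5 CPM minimum.

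**Figure D4:**
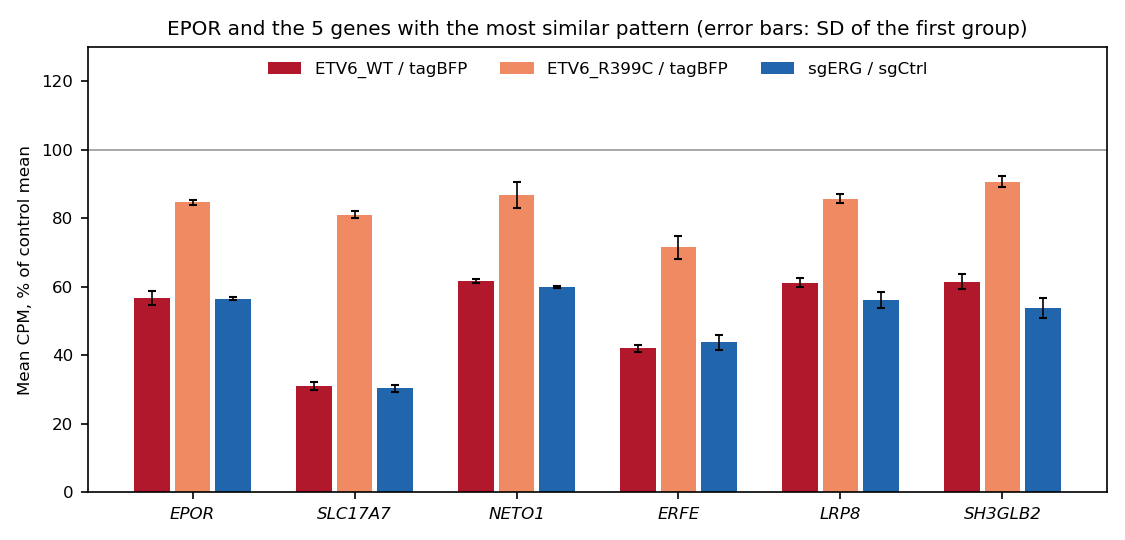
Mean CPM of EPOR and the 5 genes most like it (x axis) as a percentage of the mean of the same experiment's control (y axis, from 0); bars are ETV6_WT and ETV6_R399C over tagBFP and sgERG over sgCtrl, error bars are the SD of the first-named group's 3 libraries, and the grey line is the control. EPOR stood at 56.8% of control in ETV6_WT, 84.8% in ETV6_R399C and 56.6% in sgERG by the fitted values. In the other 5 genes ETV6_R399C is likewise the bar nearest to the control, which follows from their selection by likeness to EPOR.

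The wider pathway was described through lists of genes, which include the members that belong to them. Of 10 tested JAK kinases and STAT factors, 6 were higher and 0 lower in ETV6_WT than in tagBFP, 5 were higher and 0 lower in ETV6_R399C than in tagBFP, and 2 were higher and 1 lower in sgERG than in sgCtrl. Over all genes tested, 37.9% were called in either direction in ETV6_WT, 40.8% in ETV6_R399C and 14.6% in sgERG. By direction, 15.7% were higher and 22.2% lower in ETV6_WT, 18.7% and 22.1% in ETV6_R399C, and 6.89% and 7.74% in sgERG. JAK1, the kinase of the interleukin-7 receptor, was higher in ETV6_WT by 0.50 ± 0.04 SE (edgeR adjusted p = 1.6e-06) and in ETV6_R399C by 0.40 ± 0.04 SE (edgeR adjusted p = 1.1e-05). JAK3, its partner on the common gamma chain, was higher in sgERG by 0.32 ± 0.04 SE (edgeR adjusted p = 7.0e-04) and in ETV6_R399C over tagBFP by 0.16 ± 0.04 SE (edgeR adjusted p = 0.00541). STAT6 was higher in sgERG by 0.14 ± 0.04 SE (edgeR adjusted p = 0.0334). The list's median log2 fold change was 0.21 in ETV6_WT, 0.14 in ETV6_R399C and -0.04 in sgERG, beside -0.02, -0.00 and 0.00 over all genes. Between ETV6_WT and ETV6_R399C, 3 of the 10 were higher and 1 lower, beside 20.0% called over all genes, with TYK2 at 0.14 (edgeR adjusted p = 0.00547) and JAK3 at -0.17 (edgeR adjusted p = 0.00947).

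Of 20 listed negative regulators of the pathway, 18 were tested, and PTPRC and SOCS7 were not analysed here. In ETV6_WT over tagBFP 7 were higher and 0 lower, in ETV6_R399C over tagBFP 5 were higher and 1 lower, in ETV6_WT over ETV6_R399C 1 was higher and 2 lower, and in sgERG over sgCtrl 1 was higher and 1 lower. Over all genes, 37.9%, 40.8%, 20.0% and 14.6% were called in these 4 comparisons, so the list's shares called in either direction were near or under those of all genes. By direction, 15.7% of all genes were higher and 22.2% lower in ETV6_WT over tagBFP, where the list's 7 calls were all higher. In ETV6_R399C over tagBFP, 18.7% of all genes were higher and 22.1% lower. Its median log2 fold changes were 0.05, 0.11, 0.04 and 0.01, beside -0.02, -0.00, -0.00 and 0.00 over all genes. SH2B3, the adaptor LNK that restrains JAK2, was higher in ETV6_WT by 0.30 ± 0.05 SE (edgeR adjusted p = 3.5e-04), in ETV6_R399C by 0.44 ± 0.05 SE (edgeR adjusted p = 1.8e-05) and in sgERG by 0.16 ± 0.04 SE (edgeR adjusted p = 0.0152). PTPN6, the phosphatase SHP-1, was higher in ETV6_WT by 0.28 ± 0.05 SE (edgeR adjusted p = 0.00129) and in ETV6_R399C by 0.20 ± 0.05 SE (edgeR adjusted p = 0.00931), and lower in sgERG by a log2 fold change of -0.19 ± 0.05 SE (edgeR adjusted p = 0.0226). CBL, a ubiquitin ligase, was higher in ETV6_WT than in tagBFP by 0.11 ± 0.04 SE (edgeR adjusted p = 0.0483) and in ETV6_R399C by 0.27 ± 0.04 SE (edgeR adjusted p = 2.0e-04). CBL was lower in ETV6_WT than in ETV6_R399C at -0.16 (edgeR adjusted p = 0.0131), as was SOCS6 at -0.25 (edgeR adjusted p = 0.0103).

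Among other receptors that can signal through STAT5, 2 of 19 tested were higher and 3 lower in ETV6_WT over tagBFP, 4 higher and 2 lower in ETV6_R399C over tagBFP, 2 higher and 4 lower in ETV6_WT over ETV6_R399C, and 2 of 16 higher and 3 lower in sgERG over sgCtrl. The shares called over all genes were 37.9%, 40.8%, 20.0% and 14.6%, above the list's in both comparisons with tagBFP and below it in the other 2. The common gamma chain IL2RG was higher in both ETV6 groups, by 0.33 ± 0.04 SE in ETV6_WT (edgeR adjusted p = 4.2e-05) and 0.37 ± 0.04 SE in ETV6_R399C (edgeR adjusted p = 1.7e-05), and lower in sgERG at -0.27 ± 0.04 SE (edgeR adjusted p = 0.00217). The stem cell factor receptor KIT averaged 1.62 CPM in ETV6_WT, 1.49 in ETV6_R399C and 3.04 in tagBFP, with log2 fold changes of -0.91 ± 0.17 SE (edgeR adjusted p = 0.00123) and -1.03 ± 0.17 SE (edgeR adjusted p = 5.0e-04). CSF2RB, the shared chain of the interleukin-3 receptor family, was lower in ETV6_WT than in tagBFP at -0.38 (edgeR adjusted p = 2.1e-04) and than in ETV6_R399C at -0.54 (edgeR adjusted p = 4.1e-05), and higher in sgERG at 0.27 (edgeR adjusted p = 0.00189) and in ETV6_R399C over tagBFP at 0.16 (edgeR adjusted p = 0.0286).

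The receptor kinase FLT3 averaged 97.2 ± 8.72 CPM in sgERG and 162 ± 1.26 CPM in sgCtrl, a log2 fold change of -0.74 ± 0.06 SE (edgeR adjusted p = 1.8e-05), and was higher in ETV6_WT than in ETV6_R399C at 0.30 (edgeR adjusted p = 6.3e-04). Against tagBFP, FLT3 was higher in ETV6_WT at 0.14 (edgeR adjusted p = 0.0227) and lower in ETV6_R399C at -0.16 (edgeR adjusted p = 0.0124). IL21R averaged 7.65 CPM in ETV6_WT, 21.9 in ETV6_R399C and 9.43 in tagBFP. It was higher in ETV6_R399C than in tagBFP by 1.21 ± 0.18 SE (edgeR adjusted p = 3.1e-04). IL2RB was higher in sgERG by 1.36 ± 0.19 SE (edgeR adjusted p = 0.00104), at 3.64 CPM in sgERG and 1.43 CPM in sgCtrl.

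Of 19 tested genes reported as STAT5 targets, 4 were higher and 3 lower in ETV6_WT over tagBFP, 9 higher and 1 lower in ETV6_R399C over tagBFP, 3 higher and 6 lower in ETV6_WT over ETV6_R399C, and of 16 tested, 3 higher and 5 lower in sgERG over sgCtrl. The shares called over all genes were 37.9%, 40.8%, 20.0% and 14.6%, so the list's 7 of 19 in ETV6_WT over tagBFP was at that level. Its median log2 fold changes were 0.15, 0.16, -0.11 and -0.08, beside -0.02, -0.00, -0.00 and 0.00 over all genes. CCND2, which encodes cyclin D2, averaged 13.3 ± 0.886 CPM in ETV6_WT, 4.002 ± 0.279 in ETV6_R399C and 3.16 ± 0.411 in tagBFP. Its log2 fold change was 2.07 ± 0.11 SE in ETV6_WT over tagBFP (edgeR adjusted p = 7.5e-08) and 1.73 ± 0.11 SE over ETV6_R399C (edgeR adjusted p = 1.3e-06), and 0.34 ± 0.12 SE in ETV6_R399C over tagBFP (edgeR adjusted p = 0.0398). PIM3, the remaining PIM kinase, was higher in ETV6_WT than in tagBFP by 0.44 ± 0.03 SE (edgeR adjusted p = 2.1e-07), whereas PIM1 was lower. In ETV6_R399C over tagBFP, PIM3 was higher by 0.12 ± 0.03 SE (edgeR adjusted p = 0.00324).

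BCL2, the anti-apoptotic gene, averaged 492 ± 12.4 CPM in sgERG and 862 ± 25.0 CPM in sgCtrl. That was a log2 fold change of -0.81 ± 0.04 SE (edgeR adjusted p = 3.6e-07), while BCL2 was higher than in tagBFP by 0.15 ± 0.03 SE in ETV6_WT (edgeR adjusted p = 7.9e-04) and 0.27 ± 0.03 SE in ETV6_R399C (edgeR adjusted p = 9.8e-06). BCL6, a repressor that STAT5 is known to switch off, was lower in sgERG at -0.51 (edgeR adjusted p = 3.9e-05), lower in ETV6_WT than in tagBFP at -0.43 (edgeR adjusted p = 2.9e-07) and than in ETV6_R399C at -0.55 (edgeR adjusted p = 1.8e-07), and higher in ETV6_R399C than in tagBFP at 0.13 (edgeR adjusted p = 0.00255). CCND3, the gene of cyclin D3, was higher than in tagBFP by 0.17 ± 0.02 SE in ETV6_WT (edgeR adjusted p = 9.4e-05) and 0.19 ± 0.02 SE in ETV6_R399C (edgeR adjusted p = 3.8e-05).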

How the data were processed

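RNA from 15 Reh libraries was purified on RNEasy columns with DNase and made into libraries with a directional NEBNext Ultra II kit, per the labels' protocols. Per the submitters' processing notes, Salmon 0.11.3 and hg38 were used. The deposited tables give estimated counts and TPM by the authors for 167268 transcripts, listed by Ensembl identifier from a set whose file names date it before GENCODE 29. Whether Salmon used strand is not given in the labels. Transcripts were matched by identifier to GENCODE 29 (90.3% found), and the 6.67 to 7.56% of reads without a gene name were left out. Estimated counts were summed per gene, rounded and tested with edgeR 4.0.16 in R 4.3.3 (quasi-likelihood, TMM scaling, filterByExpr, Benjamini-Hochberg adjustment over all genes tested, threshold 0.05): 1 fit for the 9 ETV6 libraries, 1 for the 6 ERG libraries and 1 for all 15. CPM are TMM-scaled within each fit. All 10 genes passed the filter in every fit. The scripts were tested on simulated data. DESeq2 1.42.0, other scaling, no filter, a transcript length offset, a replicate block and leaving out each library were alternatives. The sum of the STAT5 genes was added after seeing the data. Named genes were all members, up to 3 called genes of smallest p per list and comparison, the targeted genes ETV6 and ERG, and the 5 most like EPOR. IL7R, EPO, genes overlapping a member and markers at 0 were named outside this rule, after their values were seen. Members and lists were chosen with earlier results of these data known. Biological coefficients of variation were 4.95% (9 libraries) and 6.24% (6 libraries).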

Additional observations from a re-analysis of the deposited data

How the results depend on the processing

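EPOR, SOCS2 and PIM1 kept their direction and call in the 4 comparisons between groups under every alternative run, apart from SOCS2 in ETV6_R399C and sgERG, which passed in none. EPOR ranged from -0.85 to -0.78 (log2) in ETV6_WT over tagBFP and from -0.84 to -0.79 in sgERG over sgCtrl. The balance of directions over all genes in ETV6_WT over tagBFP depended on scaling. With TMM, 2241 genes were higher and 3156 lower, against 2510 and 2677 with median-of-ratios scaling and 2108 and 2275 in DESeq2. With a transcript length offset, genes called fell to 2943 (ETV6_WT over tagBFP, against 5397), 3466 (ETV6_R399C over tagBFP, against 5805), 1226 (ETV6_WT over ETV6_R399C, against 2842) and 2647 (difference of effects, against 4487), and 3 of 10 members in place of 5 were called in ETV6_WT over ETV6_R399C. In sgERG over sgCtrl, genes called fell to 625 higher and 732 lower, against 927 and 1042. The cause was not tested. The offset turned PIM2 in ETV6_WT over tagBFP to 0.01 and CISH in ETV6_WT over ETV6_R399C to -0.01, neither called. Leaving out a library gave 4322 to 5295 genes called (7 members each time), 4868 to 5733 (4 to 7), 2008 to 3236 (5 to 6), 1160 to 2310 for sgERG (3 to 5) and 3899 to 4491 for the difference of effects (5 to 6). It gave -0.03 (without sgCtrl replicate 3) to 0.18 for CISH in sgERG, and -0.01 (without tagBFP replicate 1; -0.00 without sgCtrl replicate 1) to 0.05 for the EPOR difference of effects, all uncalled. Libraries with the same replicate number did not deviate together (correlations -0.10 to 0.07), so the numbers are not taken as pairs. With a replicate block, PIM2 in ETV6_R399C (0.16, adjusted p = 0.0527) and SOCS3 in the difference of effects (0.96, adjusted p = 0.0854) lost their calls, and no other member did; genes called were 5237, 5651, 2716, 1536 and 4144. SOCS3, at 15 to 79 reads per library, and CISH are limited by depth.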

Other observations

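Markers of blood lineages moved with the groups, and their part in the values above was not tested. Of 10 tested B-lineage markers, 9 were higher in ETV6_WT than in tagBFP and 9 in ETV6_R399C than in tagBFP, with none lower, while 1 was higher and 4 lower in sgERG than in sgCtrl. Over all genes, 15.7% were higher in ETV6_WT and 18.7% in ETV6_R399C, and 6.89% were higher and 7.74% lower in sgERG. MME, which encodes the precursor antigen CD10, was higher by 0.94 ± 0.03 SE in ETV6_WT (edgeR adjusted p = 1.0e-09) and by 0.79 ± 0.03 SE in ETV6_R399C (edgeR adjusted p = 5.3e-09), and lower in sgERG at -0.44 ± 0.05 SE (edgeR adjusted p = 2.4e-04). CD22, a B-cell surface lectin, was lower in sgERG at -0.43 ± 0.04 SE (edgeR adjusted p = 2.3e-05) and higher in ETV6_WT at 0.38 ± 0.02 SE (edgeR adjusted p = 3.2e-07) and in ETV6_R399C at 0.29 ± 0.02 SE (edgeR adjusted p = 3.3e-06). The 6 myeloid markers summed to 72.4 to 76.2 CPM in ETV6_WT, 86.8 to 90.3 in ETV6_R399C and 51.0 to 51.9 in tagBFP, and to 109 to 125 CPM in sgERG and 85.9 to 87.8 in sgCtrl, with ELANE at 0 in all libraries. MPO held most of the reads of these myeloid markers in every group. Of the 4 tested in ETV6_WT over tagBFP, 2 were higher and 1 lower: MPO at 0.52 ± 0.04 SE (edgeR adjusted p = 6.8e-07), CSF1R at 0.80 ± 0.06 SE (edgeR adjusted p = 2.4e-06) and CD33 at -1.02 ± 0.21 SE (edgeR adjusted p = 0.00229). In ETV6_R399C over tagBFP 2 of 4 were higher and 0 lower, and in sgERG over sgCtrl 2 of 3 were higher, CD33 at 0.98 ± 0.12 SE (edgeR adjusted p = 4.0e-04) and MPO at 0.42 ± 0.06 SE (edgeR adjusted p = 5.6e-04). The erythroid sum was 1.44 to 1.64 CPM in ETV6_WT, 2.07 to 2.33 in ETV6_R399C and 2.44 to 2.60 in tagBFP, and 0.178 to 0.404 CPM in sgERG and 0.639 to 0.966 in sgCtrl, and 1 of its 14 genes, SLC4A1, was abundant enough to be tested. SLC4A1, the red cell anion exchanger, was lower in ETV6_WT by a log2 fold change of -0.63 ± 0.18 SE (edgeR adjusted p = 0.0173) and in sgERG by -2.37 ± 0.65 SE (edgeR adjusted p = 0.0343). In ETV6_R399C over tagBFP its log2 fold change was -0.31 ± 0.18 SE (edgeR adjusted p = 0.199). The sgERG value rested on 0, 3 and 8 SLC4A1 reads per library, against 22, 19 and 38 in sgCtrl. SLC4A1 held most of the reads of the erythroid sum in every group but sgERG. The sum and the test of SLC4A1 are therefore not separate observations.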
